A study of Mus musculus with 24 samples.

Results

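The AP-1 transcription factor genes were followed in mouse primary cortical neurons: the Fos family genes Fos, Fosb, Fosl1 and Fosl2, the Jun family genes Jun, Junb and Jund, and Atf3. These genes were chosen by symbol, and they are 8 of the 45792 genes in the count table. All 8 passed the filter on low counts that left 16777 genes for testing. RNA sequencing covered 24 libraries in 6 groups of 4 biological replicates. The knockout (KO) groups came from H2BE-KO/mCherry-KI mice, with a knockout of the histone variant H2BE and an mCherry knock-in, and were collected as control, after 30 min of BDNF and after 24 h of BDNF. The wild-type (WT) groups had the same 3 conditions. Neurons of both genotypes were taken from E16.5 embryos and kept for 12 days in culture. The dose of BDNF, the handling of the control cultures and the number of animals behind a culture do not appear in the labels.

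AP-1 is a dimer of basic leucine zipper proteins. A Fos family protein must pair with a Jun family protein to bind DNA well, whereas Jun proteins can also pair with each other, and Atf3 can pair with Jun proteins or with itself and is often a repressor. In neurons, Fos, Fosb, Junb, Jun and Atf3 are immediate-early genes, switched on within minutes of synaptic or neurotrophin signals without new protein synthesis. BDNF acts through the receptor TrkB, whose ERK and calcium branches act on the factors CREB and SRF at the promoters of such genes.

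Library totals lay between 19780486 and 62135270 counts, and every level below is in CPM, read counts relative to library size after TMM scaling, unless it is scaled by exon length. Differences are log2 fold changes with their standard errors (SE) from edgeR's quasi-likelihood test over all 24 libraries. A gene is said to have risen or fallen where its Benjamini-Hochberg adjusted p over the 16777 genes was under 0.05. Where groups are said not to overlap, the share of all genes that separate in this way was not counted. The neuron markers summed to 6790 to 8190 CPM in KO and 6370 to 7670 CPM in WT libraries, with none of the 10 at 0. Astrocyte markers, 8 genes, summed to 181 to 470 CPM in KO and 426 to 628 CPM in WT libraries. Libraries whose descriptions share a code are called a culture here, numbered as the replicates. KO culture 4 stood apart with mitochondrial shares of 10.9% to 21.7% of counts, against 4.2% to 9.34% in the other KO libraries and 4.18% to 6.40% in WT libraries. Hist2h2be, the gene for H2BE, was counted at 21.2 to 63.1 CPM in KO and 3.15 to 5.83 CPM in WT libraries, so its counts do not check the knockout. The lowest KO value was in the library labelled KO 24 h replicate 4, which also held both the female transcript Xist, at 145 CPM, and the male transcript Ddx3y, at 66.3 CPM. KO control and 30 min replicate 4, of the same code, had Xist at 423 and 426 CPM and Ddx3y at only 0.193 and 0.904 CPM. KO 30 min replicate 3 had the lowest total, and only 15323 genes had a count there. The 3 libraries of KO culture 4 and KO 30 min replicate 3, called the 4 doubtful KO libraries below, were left out together as a check, and the value is given where that changes a call.

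Promoter windows are shown for the 5 genes that rose at 30 min in WT neurons, since sites for CREB and ATF proteins are among the elements through which such genes are known to respond. Windows from RefSeq were matched for 7 of the 8 genes, and Fosl1 is named only. Each is the 250 bases before the gene's start as RefSeq places it on GRCm38.p6, read along the gene's own strand. In Fos, Fosb, Junb and Atf3 the capitals mark TGACG, the short form of the cAMP response element, found on either strand, and in Jun they mark TGACNTCA, an element of the same kind that allows any base at N.
Fos, chr12:85473640-85473889, plus strand: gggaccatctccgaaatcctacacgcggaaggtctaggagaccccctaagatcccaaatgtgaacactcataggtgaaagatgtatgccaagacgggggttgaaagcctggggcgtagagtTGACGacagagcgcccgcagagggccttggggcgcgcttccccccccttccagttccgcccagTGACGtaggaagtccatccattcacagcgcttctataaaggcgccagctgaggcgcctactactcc
Fosb, chr7:19310046-19310295, minus strand: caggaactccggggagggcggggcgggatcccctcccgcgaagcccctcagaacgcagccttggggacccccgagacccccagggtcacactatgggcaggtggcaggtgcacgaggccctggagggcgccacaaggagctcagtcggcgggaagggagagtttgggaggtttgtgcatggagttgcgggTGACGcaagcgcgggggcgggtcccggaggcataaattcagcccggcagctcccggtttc
Junb, chr8:84978749-84978998, minus strand: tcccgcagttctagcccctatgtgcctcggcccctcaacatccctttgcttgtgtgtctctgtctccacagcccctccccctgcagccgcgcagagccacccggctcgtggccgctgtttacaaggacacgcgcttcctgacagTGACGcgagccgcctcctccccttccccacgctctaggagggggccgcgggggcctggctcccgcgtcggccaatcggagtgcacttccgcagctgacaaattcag
Atf3, chr1:191183334-191183583, minus strand: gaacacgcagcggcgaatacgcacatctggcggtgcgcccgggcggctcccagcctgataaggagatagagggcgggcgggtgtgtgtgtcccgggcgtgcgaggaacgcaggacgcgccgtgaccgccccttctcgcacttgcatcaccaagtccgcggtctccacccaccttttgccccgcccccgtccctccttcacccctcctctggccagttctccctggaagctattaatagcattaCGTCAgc
Jun, chr4:95052223-95052472, minus strand: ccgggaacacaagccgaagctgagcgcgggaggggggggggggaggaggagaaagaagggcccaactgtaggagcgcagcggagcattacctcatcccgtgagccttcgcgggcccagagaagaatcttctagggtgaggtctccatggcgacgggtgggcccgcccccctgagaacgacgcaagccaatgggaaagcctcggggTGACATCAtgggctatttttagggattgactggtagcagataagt

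The Fos window held TGACG at 2 places, 129 to 125 and 66 to 62 bases before the start. Fosb had it at 60 to 56 bases, Junb at 106 to 102 bases and Atf3, on the opposite strand, at 7 to 3 bases before the start. Of 32851 RefSeq windows, 17.8% held TGACG. Jun held TGACATCA at 45 to 38 bases before its start, and 7.49% of windows held TGACNTCA, a motif added to the search after the Jun sequence had been seen. The windows of Fosl2 and Jund held neither motif. But the Jund window ends at base 70697738, ahead of the GENCODE start at 70698949, and so does not adjoin the gene as annotated there. The Junb window stops at base 84978749, also short of the GENCODE start at 84978718. The windows of Atf3 and Fosl2 lie inside the GENCODE spans of these genes. The 30 bases after each of those 2 windows are part of a GENCODE transcript of the gene. The full element TGACGTCA, held by 1.55% of windows, the AP-1 site TGANTCA, held by 6.75%, and the CArG box bound by SRF, held by 1.47%, had no match in any of the 7. A match to TGACNTCA includes TGACGTCA, which in turn includes TGACG. These matches describe letters in short windows, sites further than 250 bases before the start were not searched, and binding was not measured.

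Scaled by length (CPM per kb of merged exons), the 8 genes together reached 152 ± 26.4 in KO control, 345 ± 90.7 in KO 30 min and 186 ± 9.39 in KO 24 h neurons (SD, n = 4 each). In WT neurons the same sum was 93.5 ± 20.3 in control, 585 ± 88.1 at 30 min and 137 ± 27.0 at 24 h. The sum was thus higher in KO than in WT controls and lower in KO than in WT neurons at 30 min, with no overlap between libraries at 30 min, where KO reached at most 435 and WT at least 458. KO controls ranged from 114 to 173 and WT controls from 76.8 to 121, so those groups overlapped. No test was made on these sums.

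Which gene supplied the transcripts also differed. In KO controls the length-scaled levels ran from Fos at 49.1 ± 11.5 and Fosl2 at 42.2 ± 9.82 through Jund at 27.8 ± 2.94 and Jun at 16.9 ± 2.15 to Junb at 6.39 ± 1.62, Atf3 at 5.10 ± 0.834, Fosb at 3.06 ± 0.380 and Fosl1 at 1.64 ± 0.162. The SD ranges of Fos and Fosl2 overlapped, as did those of Junb and Atf3, and the genes were not compared within each library. WT controls were led by Jund at 24.6 ± 5.77, Fosl2 at 24.5 ± 7.01 and Fos at 20.9 ± 9.73, whose SD ranges overlapped. Jun at 15.6 ± 1.72 was next, and Junb, Atf3, Fosl1 and Fosb lay at 3.56 ± 1.41 down to 0.623 ± 0.192. Fos alone made up 32.0% of the 8-gene sum in KO controls, 52.4% in KO neurons at 30 min and 35.9% at 24 h, and in WT neurons 21.6%, 56.0% and 24.4% at the same steps. Fosb, whose product pairs with Jun proteins as Fos does and whose stable splice form is known to build up with repeated stimulation, stayed a small part even at 30 min, with 5.27% in KO and 6.55% in WT neurons.

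**Figure D1:**
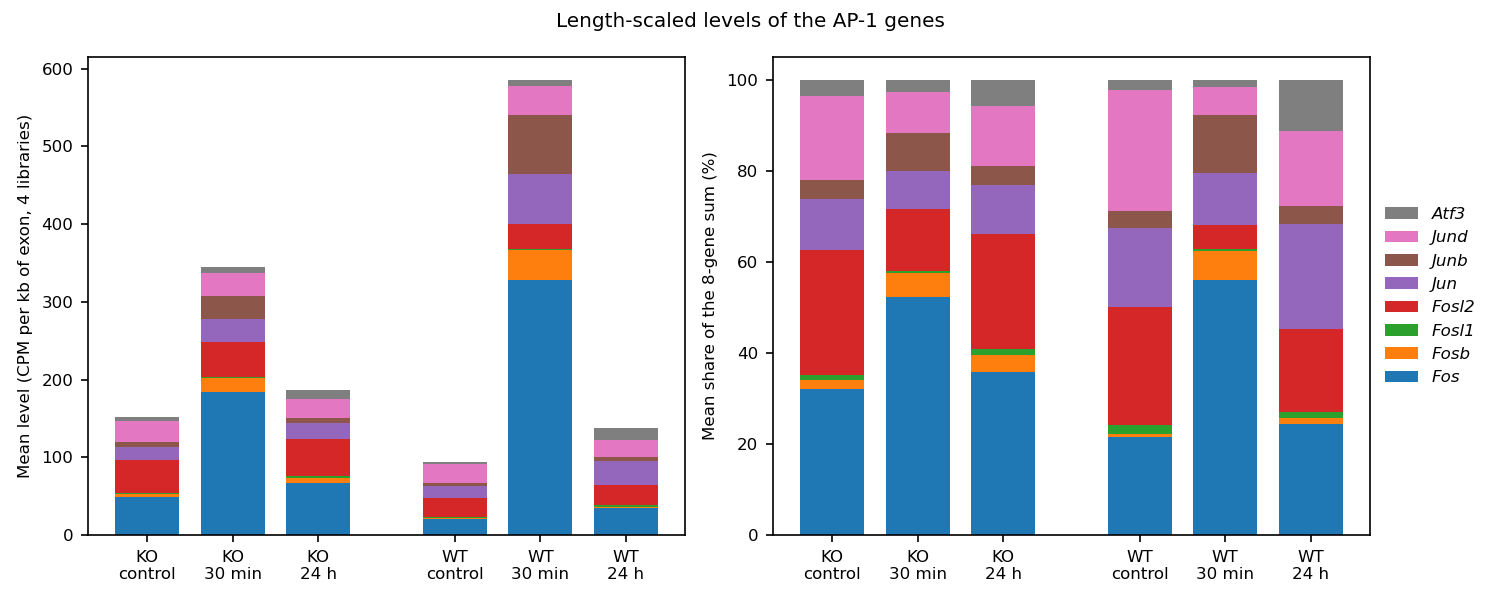
Length-scaled levels of the 8 genes in each group, as stacked means of 4 libraries in CPM per kb of exon (left) and as mean percent of the 8-gene sum (right), with KO groups left of WT groups. Fos takes the largest share at 30 min in both genotypes, 52.4% in KO and 56.0% in WT, and Atf3 its largest at 24 h in WT, 11.1%.

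The 4 Fos family genes together held 62.7% ± 3.64 of the length-scaled sum in KO controls, 71.6% ± 3.11 at 30 min and 66.2% ± 5.58 at 24 h (SD, n = 4 each). In WT neurons they held 50.1% ± 10.2 in control, 68.2% ± 6.40 at 30 min and 45.3% ± 8.45 at 24 h. The 3 Jun family genes held 34.0%, 25.8% and 28.1% in KO and 47.7%, 30.3% and 43.6% in WT neurons over the same 3 conditions. At 24 h the Fos family share was therefore above the Jun family share in KO neurons, while in WT neurons both were within their spread. With each gene's longest transcript as its length in place of merged exons, Fosl2 in place of Jund was highest in WT controls, with 32.9% of the sum against 22.9% for Jund. In KO controls Fosl2 in place of Fos was then highest, with 34.0% of the sum against 29.8% for Fos. Which gene led the controls of either genotype thus depended on the length used.

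After 30 min of BDNF, Fosb, Junb and Fos rose in KO neurons, and in WT neurons these and also Jun and Atf3 rose. The fitted rise of Fosb was 5.99-fold in KO and 61.4-fold in WT neurons, that of Junb 4.57-fold and 21.4-fold, and that of Fos 3.75-fold and 15.7-fold. Fosl1, Fosl2 and Jund did not pass the test in either genotype. Called were 3 of 8 genes in KO neurons, where 0.1252% of all genes were called, and 5 of 8 in WT neurons, where 0.370% were. The median log2 fold change of the 8 was 0.76 in KO and 2.04 in WT neurons, beside medians of -0.01 and 0.00 over all genes.

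Fos, on chromosome 12 (mm10, 85473890 to 85477273, plus strand), encodes the partner of Jun after which the family is named. It had 514, 570, 406 and 242 CPM in KO neurons at 30 min, against 140, 113, 131 and 78.4 CPM in KO controls. WT neurons had 620, 886, 914 and 666 CPM at 30 min, against 43.2, 58.6, 74.2 and 20.5 CPM in WT controls. Groups did not overlap within either genotype, and replicate 4 was the lowest KO library in both conditions. The log2 fold change was 1.91 ± 0.31 in KO (SE, adjusted p = 0.00326, edgeR) and 3.97 ± 0.34 in WT neurons (adjusted p = 4.5e-08, edgeR). In pooled RNA from a culture, more cells with a transcript and more RNA per cell cannot be told apart.

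Fosb, on chromosome 7 (19302696 to 19310051, minus strand), had the largest fitted fold change of the 8 at 30 min in both genotypes. KO neurons at 30 min had 133, 150, 104 and 70.7 CPM, against 20.5, 18, 21.6 and 16.4 CPM in KO controls. In WT neurons the 30 min libraries had 189, 258, 261 and 248 CPM, against 3.25, 5.12, 4.64 and 2.54 CPM in WT controls. Every 30 min library lay above every control library of its genotype, and the WT controls were the lowest of the 4 groups. Its log2 fold change was 2.58 ± 0.31 in KO (adjusted p = 4.33e-05, edgeR) and 5.94 ± 0.36 in WT neurons (adjusted p = 3.89e-10, edgeR).

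Junb, on chromosome 8 (84974484 to 84978718, minus strand), encodes a Jun protein that activates less strongly than Jun and can restrain it. At 30 min KO neurons had 67.5, 92.6, 73.6 and 36.4 CPM, against 19, 16, 13.6 and 10.2 CPM in KO controls. WT neurons had 86.9, 177, 178 and 258 CPM at 30 min, against 5.47, 6.22, 12.7 and 8.33 CPM in WT controls. Here too the groups did not overlap, and WT 30 min replicate 1 was the lowest of its group. Junb rose by 2.19 ± 0.32 in KO (adjusted p = 0.000817, edgeR) and 4.42 ± 0.35 in WT neurons on the log2 scale (adjusted p = 1.66e-08, edgeR). Junb shares 173 exon bases, 7.52% of its exons, with Prdx2 on the opposite strand. The labels do not state which strand setting the authors counted with, so reads there cannot be assigned with certainty.

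Jun, on chromosome 4 (95049034 to 95052222, minus strand), encodes the main transactivating partner in the dimer. KO neurons at 30 min had 102, 123, 94.1 and 57.5 CPM, against 49.7, 63.5, 53.5 and 48.3 CPM in KO controls. In WT neurons it had 213, 195, 174 and 248 CPM at 30 min, against 45.4, 45.2, 52.2 and 56.5 CPM in WT controls. The WT groups stood well apart, while KO 30 min replicate 4 lay within the KO control range. The log2 fold change was 0.81 ± 0.18 in KO (adjusted p = 0.130, edgeR) and 2.06 ± 0.19 in WT neurons (adjusted p = 1.2e-07, edgeR). Without KO 30 min replicate 4 the KO value was 0.98 (adjusted p = 0.00361, edgeR), and without the 4 doubtful KO libraries it was 1.01 (adjusted p = 0.000808, edgeR). DESeq2 also called it (adjusted p = 0.0201). Jun shares 232 exon bases, 7.28%, with the antisense gene Junos.

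Atf3, on chromosome 1 (191170296 to 191218039, minus strand), is a stress and injury response gene in neurons. In KO neurons at 30 min it had 19.4, 14.4, 18.6 and 19.2 CPM, against 12.4, 9.52, 12.6 and 9.34 CPM in KO controls. WT neurons had 18.7, 19.8, 20 and 14.3 CPM at 30 min, against 4.39, 5.98, 5.02 and 2.40 CPM in WT controls. The 30 min libraries of both genotypes thus covered nearly the same range, and the controls did not. The log2 fold change was 0.70 ± 0.22 in KO (adjusted p = 0.923, edgeR) and 2.03 ± 0.23 in WT neurons (adjusted p = 4.34e-06, edgeR).

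Jund, on chromosome 8 (70698949 to 70700616, plus strand), encodes the Jun protein known for steady expression and for holding growth in check. It had 42.6 to 59.4 CPM in KO neurons at 30 min and 39.9 to 51.5 CPM in KO controls, and 39.5 to 83.5 CPM in WT neurons at 30 min and 29.2 to 51.2 CPM in WT controls. Both pairs of groups overlapped, with log2 fold changes of 0.09 ± 0.19 in KO (adjusted p = 1.0, edgeR) and 0.57 ± 0.19 in WT neurons (adjusted p = 0.802, edgeR). Fosl2, on chromosome 5 (32135801 to 32157842, plus strand), and Fosl1, on chromosome 19 (5447547 to 5455946, plus strand), encode Fra-2 and Fra-1, Fos proteins that lack the strong activation domain of Fos. Fosl2 changed by 0.09 ± 0.25 in KO and 0.35 ± 0.25 in WT neurons on the log2 scale, and Fosl1 by -0.28 ± 0.22 and 0.22 ± 0.22 (adjusted p = 1.0 for all 4, edgeR). Fosl1 had 1.90 to 6.28 CPM over all 24 libraries, and 57.2% of its exon bases lie opposite exons of Ccdc85b. A share of 52.6% of Jund's exons lies opposite Gm11175, which had no count in any library.

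**Figure D2:**
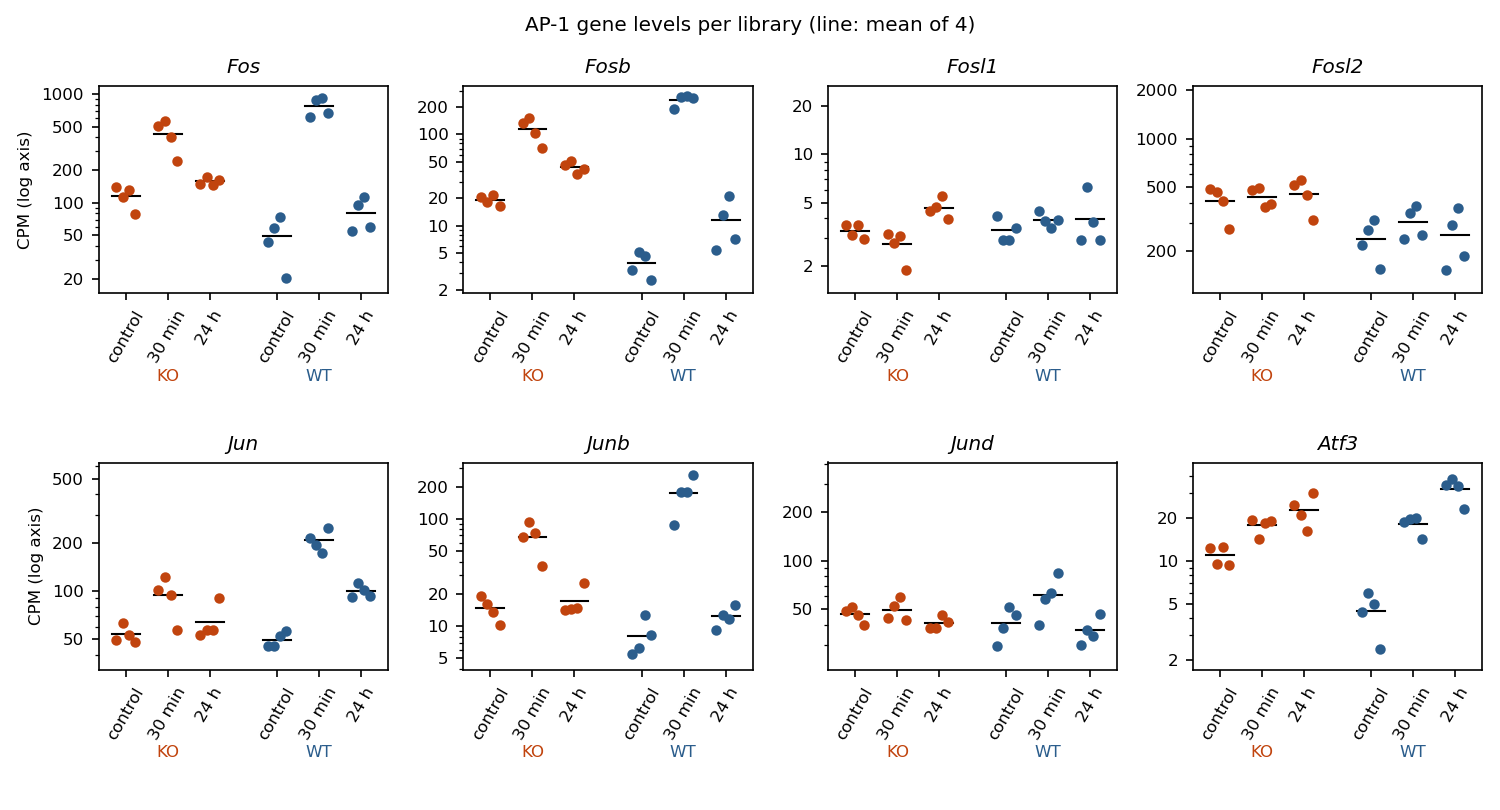
Level of each gene in each of the 24 libraries, in CPM on a log axis, with KO groups left of WT groups, 1 point per library in replicate order and a line at the mean of 4. For Fosb, KO libraries lie at 70.7 to 150 CPM at 30 min and 16.4 to 21.6 CPM in controls, and WT libraries at 189 to 261 CPM at 30 min and 2.54 to 5.12 CPM in controls.

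Fosb responded less to 30 min of BDNF in KO neurons than in WT neurons, by a log2 difference in response of -3.36 ± 0.43 (adjusted p = 0.000547, edgeR interaction term). Fosb was the only 1 of the 8 called there, where 0.0477% of all genes were called, and its call remained whichever of the 16 libraries was left out. The differences were -2.23 ± 0.44 for Junb (adjusted p = 0.0572), -2.07 ± 0.43 for Fos (adjusted p = 0.0782), -1.25 ± 0.25 for Jun (adjusted p = 0.0699) and -1.33 ± 0.31 for Atf3 (adjusted p = 0.215), all by edgeR. All 8 values were negative, with -0.50 ± 0.31 for Fosl1, -0.48 ± 0.26 for Jund and -0.26 ± 0.36 for Fosl2. The 8 comparisons share their libraries, so these signs are not independent.

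Calls on this difference depended on the test and on single libraries. DESeq2 called 5 genes, with Fosb, Junb (adjusted p = 0.000643), Fos (0.00157), Jun (0.00398) and Atf3 (0.0322). With culture as a block in the edgeR fit, Fosb, Fos (adjusted p = 0.000711), Atf3 (0.00573) and Junb (0.0134) were called. Jun missed the threshold there (0.0553), and 0.179% of all genes were called. Without the filter on low counts edgeR called 4, adding Junb (adjusted p = 0.00862), Fos (0.0117) and Jun (0.0249). Junb was also called without WT 30 min replicate 1, WT control replicate 3, KO 30 min replicate 2 or KO control replicate 4 (edgeR adjusted p between 0.0157 and 0.0426). Fos was called without WT control replicate 3 or KO control replicate 4 (0.0354 and 0.0489), and Jun without KO 30 min replicate 2 (0.0246) or the 4 doubtful KO libraries (0.0306).

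The number written after the word control in the control libraries' descriptions, 1 or 2, was carried to the BDNF libraries by the shared code. This splits the libraries into 2 sets of 9 and 15, and the labels do not say what the number marks. In set 1 the mean log2 rise of Fosb at 30 min was 2.69 in KO (1 culture) and 5.74 in WT neurons (2 cultures), and in set 2 it was 2.48 in KO (3 cultures) and 6.19 in WT neurons (2 cultures). Fos rose by 1.88 and 3.88 in set 1 and by 1.86 and 4.32 in set 2, with KO given first in each pair. For Junb the pairs were 1.83 and 4.40 in set 1 and 2.26 and 4.37 in set 2, for Jun 1.03 and 2.17 and then 0.67 and 1.93, and for Atf3 0.64 and 1.90 and then 0.73 and 2.26. In both sets the KO value was the smaller for all 5 genes. Set 2 alone, with 3 KO and 2 WT cultures, gave a Fosb difference of -3.62 (adjusted p = 0.267, edgeR), and its rise of Fos in KO neurons missed the threshold (1.91, adjusted p = 0.485, edgeR).

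**Figure D3:**
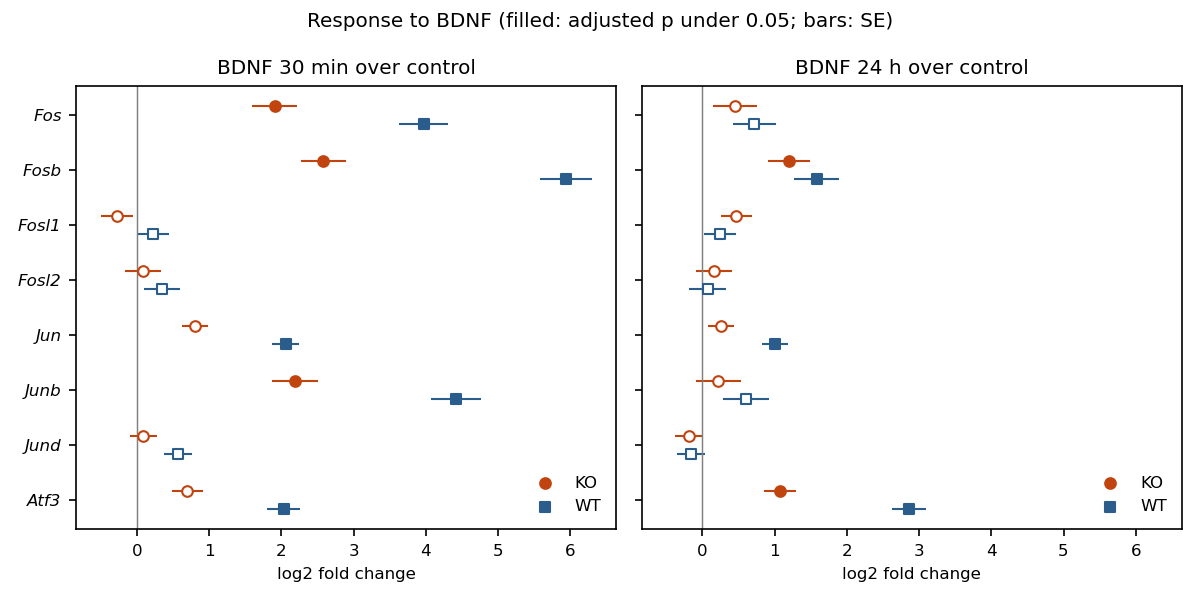
Fitted log2 fold change of each gene after 30 min (left) and 24 h (right) of BDNF over control, with KO as circles and WT as squares, bars for the SE and filled marks for adjusted p under 0.05. At 30 min Fosb, Junb and Fos are filled in both genotypes and Jun and Atf3 in WT, with WT values to the right of KO values for all 8 genes.

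By 24 h of BDNF the pattern was another: Atf3 and Fosb were above control in both genotypes, Jun in WT neurons, and Fos and Junb did not pass the test. Atf3 was 2.10-fold higher in KO and 7.25-fold higher in WT neurons than in their controls. Called were 2 of 8 genes in KO neurons, where 5.61% of all genes were called, and 3 of 8 in WT neurons, where 18.7% were. The median log2 fold change of the 8 was 0.36 in KO and 0.66 in WT neurons, beside -0.03 and -0.01 over all genes.

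Atf3 had 24.7, 21.0, 16.3 and 30.1 CPM in KO neurons at 24 h, and 34.5, 38, 33.5 and 23.1 CPM in WT neurons at 24 h. All 24 h libraries were above their controls given earlier, and the 2 genotypes overlapped at 24 h. Over control, the log2 fold change was 1.07 ± 0.22 in KO (adjusted p = 0.00504, edgeR) and 2.86 ± 0.23 in WT neurons (adjusted p = 5.47e-08, edgeR). Its response differed between KO and WT neurons by -1.79 ± 0.31 (adjusted p = 0.0297, edgeR interaction term), the 1 gene of the 8 called there, beside 0.0358% of all genes. That call was lost in 8 of the 16 fits that each left out 1 library, those without WT control replicate 1, WT 24 h replicate 1, 2 or 3, KO control replicate 1 or 3, or KO 24 h replicate 2 or 3 (value -1.65 to -1.78, adjusted p = 0.0560 to 0.0997). DESeq2 also called this difference (adjusted p = 4.94e-05). With culture as a block edgeR called it too (adjusted p = 0.000193), where 1.78% of all genes were called. By set, the mean log2 rise of Atf3 was 0.99 in KO and 2.81 in WT neurons in set 1, and 1.06 in KO and 2.99 in WT neurons in set 2. In set 2 alone the rise of Atf3 in KO neurons (1.10, adjusted p = 0.155) and the difference (-1.82, adjusted p = 1.0) missed the threshold, as did Fosb in KO (1.21, adjusted p = 0.188) and Jun in WT neurons (0.83, adjusted p = 0.215, all by edgeR).

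Fosb at 24 h had 46.6, 51.2, 36.6 and 41.8 CPM in KO neurons, and 5.39, 13, 21.2 and 7.16 CPM in WT neurons. KO libraries at 24 h lay above all KO controls, and WT libraries at 24 h above all WT controls, but the highest WT value at 24 h was below the lowest KO value. As log2 fold changes, the rises were 1.20 ± 0.29 in KO (adjusted p = 0.0172, edgeR) and 1.58 ± 0.31 in WT neurons (adjusted p = 0.000937, edgeR). In KO neurons it missed the threshold without KO 24 h replicate 1 or 2 or KO control replicate 2 or 4 (adjusted p = 0.0501 to 0.0601, edgeR). DESeq2 called Fosb there (adjusted p = 0.00144). With culture as a block edgeR did so as well (adjusted p = 0.00043), where 16.9% of all genes were called.

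Jun at 24 h had 53.0, 57.6, 57.2 and 90.1 CPM in KO neurons, and 92.1, 112, 101 and 93.2 CPM in WT neurons. WT libraries at 24 h all lay above WT controls, while 3 of the 4 KO libraries lay within the KO control range and replicate 4, the library with both Xist and Ddx3y, stood above it. The log2 fold change was 0.26 ± 0.18 in KO (adjusted p = 0.475, edgeR) and 1.0 ± 0.18 in WT neurons (adjusted p = 0.000414, edgeR). The difference in response was -0.74 ± 0.25 (adjusted p = 0.574, edgeR), and -0.98 (adjusted p = 0.0115, edgeR) when the 4 doubtful KO libraries were left out. What that library's mixture contributed was not tested.

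Fos at 24 h had 149, 174, 146 and 161 CPM in KO neurons, and 54.5, 94.5, 114 and 59.7 CPM in WT neurons. The KO libraries overlapped the 24 h WT group at no point. Over their own controls, the log2 fold change was 0.45 ± 0.30 in KO (adjusted p = 0.463, edgeR) and 0.72 ± 0.30 in WT neurons (adjusted p = 0.106, edgeR), and the WT value was 0.98 and called without WT control replicate 3 (adjusted p = 0.0363, edgeR). Junb had 14.1, 14.5, 14.9 and 25.5 CPM in KO and 9.24, 12.8, 11.6 and 15.8 CPM in WT neurons, with log2 fold changes of 0.22 ± 0.31 and 0.60 ± 0.32 (adjusted p = 0.771 and 0.213, edgeR). The remaining genes stayed within 0.47 ± 0.22 (Fosl1 in KO) and -0.19 ± 0.19 (Jund in KO) on the log2 scale, and none of them was called.

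Set against 30 min, the 24 h libraries showed how far each rise had gone back. In KO neurons Junb fell by 1.97 ± 0.32, Fos by 1.46 ± 0.30 and Fosb by 1.38 ± 0.29 on the log2 scale between 30 min and 24 h (adjusted p = 0.00224, 0.0108 and 0.0123, edgeR). These were 3 of 8 genes, beside 2.61% of all genes. In WT neurons Fosb fell by 4.36 ± 0.33, Junb by 3.82 ± 0.34, Fos by 3.26 ± 0.33, Jun by 1.06 ± 0.18 and Jund by 0.73 ± 0.19, while Atf3 rose further by 0.83 ± 0.22 (adjusted p at most 0.0100, edgeR). That made 6 of 8 genes in WT neurons, beside 16.1% of all genes. Jund, which had not passed at either step over control, had 29.7, 37.1, 33.8 and 46.3 CPM at 24 h against 39.5, 57.8, 62.5 and 83.5 CPM at 30 min in WT neurons. These groups overlapped, and without WT 30 min replicate 4 the call was lost (-0.53, adjusted p = 0.0578, edgeR). In KO neurons the calls on Fos (-1.29, adjusted p = 0.0506) and Fosb (-1.21, adjusted p = 0.0574) were lost without KO 30 min replicate 2. Jun in KO neurons, at -0.54 ± 0.18 (adjusted p = 0.116), was called without KO 30 min replicate 4 (-0.72, adjusted p = 0.00771) or KO 24 h replicate 4 (-0.75, adjusted p = 0.0207), and at -0.99 without the 4 doubtful KO libraries (adjusted p = 0.000203), all by edgeR. Set 2 alone lost the calls on Fos, Fosb and Junb in KO neurons (adjusted p = 0.403, 0.350 and 0.129) and on Jun, Jund and Atf3 in WT neurons (0.120, 0.0812 and 0.480, edgeR). Fosl1 in KO neurons was at 0.75 ± 0.22 (adjusted p = 0.0738, edgeR) and was called by DESeq2 (adjusted p = 0.0211).

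Before any BDNF, KO neurons had more Fosb, Atf3, Fos and Fosl2 transcripts than WT neurons. Fosb averaged 19.1 ± 2.37 CPM in KO and 3.89 ± 1.20 CPM in WT controls (SD, n = 4 each), with a log2 fold change of 2.30 ± 0.32 (SE, adjusted p = 2.52e-05, edgeR). Atf3 was higher by 1.3 ± 0.23 (adjusted p = 0.000243), Fos by 1.23 ± 0.30 (adjusted p = 0.00519) and Fosl2 by 0.78 ± 0.25 (adjusted p = 0.0301, all by edgeR). Those 4 of 8 genes stand beside 21.4% of all genes called, and 11.3% called higher. The median of the 8 was 0.82, beside 0.03 over all genes.

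For Fosb, Fos and Atf3 every KO control lay above every WT control, but how many of all genes separate in this way was not counted. Fosl2 had 485, 465, 408 and 274 CPM in KO and 216, 268, 311 and 154 CPM in WT controls, so that KO replicate 4 lay within the WT range. The Fosl2 call was lost without WT control replicate 1 or 4 or KO control replicate 1, 2 or 3 (value 0.62 to 0.77, adjusted p = 0.0596 to 0.110, edgeR). Junb was at 0.86 ± 0.32 (adjusted p = 0.0577, edgeR), and it was called without WT control replicate 3 (adjusted p = 0.0189), without KO control replicate 4 (0.0430), without the 4 doubtful KO libraries (0.0144) and by DESeq2 (0.0321). Jun, Jund and Fosl1 differed by 0.11 ± 0.18, 0.18 ± 0.19 and -0.01 ± 0.22. Within set 1, Fosb had 20.5 CPM in the KO control and 4.18 CPM on average in WT controls, and within set 2 it had 18.7 and 3.59 CPM. Fos had 140 and 50.9 CPM in set 1 and 107 and 47.3 CPM in set 2, KO first, but set 2 alone lost the calls on Fos (adjusted p = 0.198) and Fosl2 (0.326, edgeR).

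At 30 min of BDNF, Fosb and Fos, both higher in KO controls, were lower in KO than in WT neurons, as were Junb and Jun. Junb was lower in KO than in WT neurons by a log2 fold change of -1.37 ± 0.31, Jun by -1.14 ± 0.18, Fosb by -1.06 ± 0.29 and Fos by -0.83 ± 0.30 (adjusted p = 0.00198, 7.06e-05, 0.0083 and 0.0405, edgeR). That was 4 of 8 genes called, all lower, where 28.4% of all genes were called and 13.8% were lower. The KO and WT libraries did not overlap for Fosb, Fos or Jun. For Junb, KO replicate 2 at 92.6 CPM was above WT replicate 1 at 86.9 CPM. Atf3 was level at -0.03 ± 0.22, and Fosl2 was at 0.52 ± 0.25 (adjusted p = 0.128, edgeR). Without the 4 doubtful KO libraries, Junb and Jun were still called, and Fosb and Fos were at -0.75 (adjusted p = 0.113) and -0.51 (adjusted p = 0.292, edgeR). The call on Fos was also lost without WT 30 min replicate 2 or 3 or KO 30 min replicate 3 or 4 alone (adjusted p = 0.0869 to 0.119, edgeR). Jun averaged 102 CPM in KO and 204 CPM in WT neurons in set 1, and 91.4 and 211 CPM in set 2, where the calls on Fosb (adjusted p = 0.0630) and Fos (0.202, edgeR) were lost.

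After 24 h of BDNF, Fosb, Fos and Fosl2 were higher in KO than in WT neurons and Jun was lower. Fosb differed by 1.92 ± 0.30 (adjusted p = 0.000368), Fos by 0.96 ± 0.30 (adjusted p = 0.0362), Fosl2 by 0.87 ± 0.25 (adjusted p = 0.0254) and Jun by -0.63 ± 0.18 (adjusted p = 0.0230, all by edgeR). These 4 of 8 genes stand beside 13.3% of all genes. Fosl2 had 512, 551, 444 and 313 CPM in KO and 152, 288, 371 and 187 CPM in WT neurons, and the groups overlapped through KO replicate 4. Fosb kept its call in each fit that left out 1 library. Fos lost it without WT 24 h replicate 1, 2 or 4 or KO 24 h replicate 1, 2 or 3 (adjusted p = 0.0578 to 0.138), and Fosl2 without WT 24 h replicate 1 or 4 or KO 24 h replicate 1, 2 or 3 (0.0601 to 0.114). Jun lost it without WT 24 h replicate 2 or 3 or KO 24 h replicate 1, 2 or 3 (0.05 to 0.0922). Atf3, at -0.48 ± 0.21 (adjusted p = 0.146), was called at -0.65 without KO 24 h replicate 4 (adjusted p = 0.0483) and at -0.63 without the 4 doubtful KO libraries (adjusted p = 0.0405, all by edgeR). Fosb had 46.6 CPM in KO and 9.19 CPM in WT neurons in set 1, and 43.2 and 14.2 CPM in set 2. Set 2 alone lost all 4 calls (adjusted p = 0.216 to 0.625, edgeR).

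**Figure D4:**
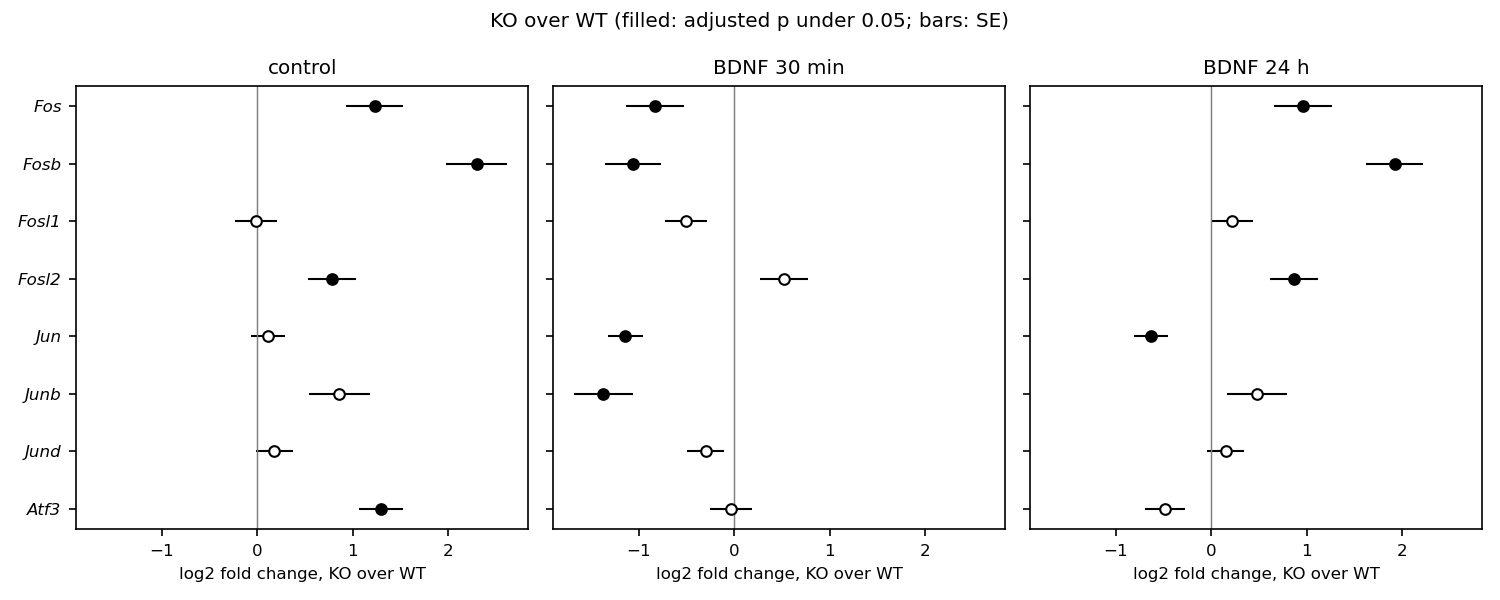
Fitted log2 fold change of each gene in KO over WT neurons in control, at 30 min and at 24 h of BDNF, with bars for the SE and filled marks for adjusted p under 0.05. Fosb and Fos lie right of 0 in control, left of it at 30 min and right of it again at 24 h.

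Other features of the cultures moved beside these results. Of the astrocyte markers, Sox9, which encodes a transcription factor, rose at 30 min, with 12.1 ± 2.58 CPM in KO neurons at 30 min and 3.91 ± 0.843 CPM in KO controls, and 9.14 ± 5.49 CPM in WT neurons at 30 min and 2.48 ± 0.535 CPM in WT controls (SD, n = 4 each). At 24 h Slc17a6 rose in both genotypes, and in WT neurons Mbp rose while Tubb3 and Rbfox3 fell. The summed astrocyte markers were 181 to 316 CPM in KO and 426 to 618 CPM in WT controls, 223 to 291 and 426 to 628 CPM at 30 min, and 205 to 470 and 462 to 559 CPM at 24 h, with KO first. Of the 8 markers, 1 was called lower in KO controls, 5 at 30 min and 1 at 24 h, and none was at 0 in any group. Among the 10 neuron markers, 2 were called higher in KO controls, Gad1 and Gad2, and 4 lower, Neurod6, Slc17a7, Tubb3 and Rbfox3. This stands beside 21.4% of all genes called. Gad1 averaged 1070 ± 200 CPM in KO and 526 ± 177 CPM in WT controls, and Gad2 525 ± 87 and 230 ± 147 CPM (SD, n = 4 each). At 30 min 3 neuron markers were higher and 4 lower in KO neurons, and at 24 h 1 was higher and 1 lower. The neuron and astrocyte counts alike stand beside 21.4% of all genes called in controls, 28.4% at 30 min and 13.3% at 24 h. Microglia markers, of which 1 of 8 was at 0 in several groups, summed to 1.22 to 5.42 CPM in KO and 0.777 to 1.85 CPM in WT libraries, oligodendrocyte markers to 23.3 to 58.6 and 35.5 to 89.9 CPM, and vascular and fibroblast markers to 11.3 to 38.8 and 15.8 to 56.1 CPM. Their part in the responses and differences of the AP-1 genes was not tested.

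Across the 24 libraries, log2 CPM of Fos and Fosb ran together with Pearson's r = 0.98, Fos and Junb with 0.94, Fosb and Junb with 0.91 and Jun and Junb with 0.83. These values share the groups, libraries and depth, and are descriptions. Among 12048 genes with a mean of at least 1 CPM, members left out, those most like Fos were Dusp1 (0.984), a phosphatase of MAP kinases, Nr4a1 (0.979), an orphan nuclear receptor, and Npas4 (0.975), an activity-dependent transcription factor. The same 3 led for Fosb, with 0.964 for Dusp1, 0.940 for Npas4 and 0.936 for Nr4a1. Junb was closest to Egr4 (0.971), Ier2 (0.955) and Nr4a1 (0.945), and Jun to Egr2 (0.930), Ier2 (0.914) and Arc (0.912). Atf3 had Tiparp (0.909), Dusp5 (0.896) and Csrnp1 (0.894) beside it. Fosl2 was nearest to Pcdh9 (0.932), a protocadherin, Hdac9 (0.927), a histone deacetylase, and Enah (0.922), an actin regulator. For Jund and Fosl1 the highest values were 0.794 with C1qtnf4 and 0.756 with Xylb.

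Few other genes of the pathway were called at 30 min. Over all genes, 0.1252% were called in KO and 0.370% in WT neurons, so a count of 0 in a short list says little. Of 17 measured genes for other basic leucine zipper proteins that can pair with AP-1 members, Maff, a small Maf protein, rose in WT neurons by 1.76 ± 0.28 (adjusted p = 0.000888, edgeR) and none passed in KO neurons. The 17 factors known to act upstream, such as CREB and SRF family genes, had 1 riser in WT neurons, Srf itself, with 56.3 ± 4.50 CPM at 30 min against 34.5 ± 2.64 CPM in control (log2 fold change 0.71 ± 0.13, adjusted p = 0.00386, edgeR). None of them passed in KO neurons, and Srf was lower in KO than in WT neurons at 30 min by -0.72 ± 0.13 (adjusted p = 0.000227, edgeR). By edgeR and by DESeq2, 0 genes passed at 30 min in either genotype among 21 upstream kinases, 11 genes of AP-1 protein and mRNA turnover and 25 measured genes known as AP-1 targets. At an unadjusted p under 0.05 edgeR gave 0 kinases, 1 turnover gene and 4 targets in KO neurons, and 0, 1 and 2 in WT neurons. The corresponding unadjusted counts in KO neurons were 3 dimer partners and 2 upstream factors, again with 0 called by DESeq2. Over all genes, 4.304% in KO and 1.81% in WT neurons had an unadjusted p under 0.05.

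At 24 h the lists moved more, as did all genes, of which 5.61% were called in KO and 18.7% in WT neurons. Of the 25 targets, 6 rose and 1 fell in KO neurons and 14 rose and 1 fell in WT neurons, with medians of 0.77 and 1.34 beside -0.03 and -0.01 over all genes. Tnc, the matrix protein tenascin C, averaged 36.9 ± 7.51 CPM in KO neurons at 24 h and 7.64 ± 1.73 CPM in KO controls, and 39.6 ± 11.8 CPM in WT neurons at 24 h and 5.59 ± 1.96 CPM in WT controls. Hmox1, which degrades heme, rose by 0.83 ± 0.17 in KO and 1.56 ± 0.18 in WT neurons (adjusted p = 0.00574 and 1.93e-06, edgeR). Mmp3, a secreted protease, had 972 counts over the 4 KO libraries at 24 h and 12 in KO controls, and rose in both genotypes. Nptx2, a pentraxin that gathers AMPA receptors, rose in WT neurons by 2.63 ± 0.33 (adjusted p = 7.47e-06, edgeR).

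Of the dimer partners, 1 rose in KO neurons at 24 h, Jdp2, a repressor that pairs with Jun (0.48 ± 0.14, adjusted p = 0.0401, edgeR), and 7 rose and 1 fell in WT neurons, with Ddit3 at 1.05 ± 0.13 and Jdp2 at 0.75 ± 0.14. Elk3, a partner of SRF, rose in both, by 1.89 ± 0.37 in KO and 1.73 ± 0.37 in WT neurons. Of the 21 upstream kinases, 1 rose and 3 fell in KO and 2 rose and 4 fell in WT neurons. These counts of partners and kinases also stand beside 5.61% of all genes called in KO and 18.7% in WT neurons. Mapk3, which encodes ERK1, fell by 0.35 ± 0.08 in KO and by 0.62 ± 0.08 in WT neurons, and Rps6ka5, which encodes MSK1, by 1.04 ± 0.24 and 1.03 ± 0.23 (adjusted p at most 0.0104, edgeR). Fbxw7, part of a ubiquitin ligase that acts on Jun, fell by 0.62 ± 0.14 in KO and 0.61 ± 0.14 in WT neurons.

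In controls, 11 of the 25 targets were higher in KO than in WT neurons and 1 was lower, with a median of 1.29 beside 0.03 over all genes. Of all genes, 11.3% were called higher and 10.1% lower in KO controls. Npy, a neuropeptide gene, averaged 124 ± 19 CPM in KO and 16.6 ± 7.22 CPM in WT controls, and Bdnf itself 242 ± 28.0 CPM in KO and 60.3 ± 28.4 CPM in WT controls (SD, n = 4 each). Scg2, a granin, was higher by 1.29 ± 0.20 and Nptx2 by 1.94 ± 0.33 (adjusted p = 9.96e-05 and 0.000171, edgeR). Crem, a CREB family gene, was higher by 1.26 ± 0.23 (adjusted p = 0.000468), and Camk4, a calcium-dependent kinase of CREB, was lower by -0.79 ± 0.17 (adjusted p = 0.00183, edgeR). At 30 min, 13 targets were higher and 2 lower in KO than in WT neurons, and at 24 h 4 were higher and 1 lower. Of all genes, 14.6% were called higher and 13.8% lower at 30 min, and 7.09% and 6.16% at 24 h. For the difference between KO and WT neurons in the response to BDNF, edgeR and DESeq2 called 0 genes of these 5 lists, at 30 min and at 24 h. Only 0.0477% of all genes were called at 30 min and 0.0358% at 24 h, so a count of 0 in lists this short says little. At an unadjusted p under 0.05 edgeR gave 0 to 2 genes a list at 30 min, and at 24 h 8 targets and 0 to 3 genes in each other list. Over all genes the unadjusted shares were 1.79% at 30 min and 5.6% at 24 h.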

How the data were processed

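Polyadenylated RNA from primary cortical neurons was made into libraries with a stranded mRNA kit, per the labels' protocols. The authors deposited raw read counts per Ensembl gene for the 24 libraries. The submitters' processing notes name STAR 2.7.9a, edgeR 3.40.2, DESeq2 1.38.3, limma 3.54.2 and mm10. For the counter and its strand setting, the labels give nothing. Symbols, coordinates and exon lengths came from GENCODE M21, and 98.8% of the 45792 genes had a symbol. The unnamed ones held 0.0662% of counts.

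Genes were kept with edgeR's filterByExpr (minimum count 10, minimum total 15), leaving 16777. Counts were scaled by TMM and tested in R 4.3.3 with edgeR 4.0.16 (glmQLFit, glmQLFTest), with 1 mean per group, 18 residual degrees of freedom and Benjamini-Hochberg adjustment over all genes kept. Each SE was taken as the absolute log2 fold change over the root of F. The script was tested on simulated data. Correlations used log2 CPM with a prior count of 2. DESeq2 1.42.0, other scaling, no filter, fits of the compared groups alone, replicate blocks, set 2 alone, and fits without single or doubtful libraries were alternatives. Named beside the 8 genes were, by rule, the 3 genes most correlated with each, and in each list and comparison up to 4 genes with the lowest p among those called. Counts of other genes within a list follow from these lists. The members, lists, doubtful libraries and alternatives were chosen with earlier results of these data known. Replicates are called biological by the labels, and p-values measure the spread between these libraries.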

Additional observations from a re-analysis of the deposited data

Results flagged for a closer look

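In 48 combinations of gene and group, 4 held a library whose gap to its nearest neighbour, as a share of the group's range in log2 CPM, was above Dixon's limit for 4 samples at the 95% level. Chance flags about 1 in 20 groups. Junb in KO 24 h replicate 4 was the highest of its group with a ratio of 0.906, and Jun in the same library was the highest with 0.844. That library is the one with both Xist and Ddx3y and with Hist2h2be at 21.2 CPM, and its part in these values was not tested. Atf3 in KO 30 min replicate 2 was the lowest of its group with 0.873, and Fosb in WT 30 min replicate 1 the lowest with 0.842. The responses of 2 genes differed between genotypes by the interaction term: Fosb at 30 min by -3.36 and Atf3 at 24 h by -1.79, KO minus WT on the log2 scale.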

How the results depend on the processing

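Of 67 gene results at least 1 SE away from 0 (21 nearer to 0 were left out), 1144 alternative values were computed. In the fits that left out 1 library, 553 kept direction and side of the threshold, 14 gained and 40 lost a call, and 1 reversed. In the others, 486 kept both, 26 gained and 24 lost a call. The reversed value was Fosl1 in WT neurons at 24 h, -0.072 without WT 24 h replicate 2, within a range up to 0.37 over the libraries left out. Set 2 alone, with fewer libraries, called 0 AP-1 genes at 24 h over control in KO neurons, 0 at 24 h over 30 min in KO and 3 in WT neurons, 2 between KO and WT in control, 2 at 30 min and 0 at 24 h, and 0 in either difference in response, all by edgeR. At an unadjusted p under 0.05 those counts of 0 were 2, 4, 1, and 5 and 1 for the differences at 30 min and 24 h. Leaving out 1 library in turn gave 1 to 2 genes for 24 h over control and 1 to 4 for 24 h over 30 min in KO neurons, 3 to 5, 3 to 4 and 1 to 5 for KO against WT in control, at 30 min and at 24 h, and 1 to 3 and 0 to 1 for the differences in response at 30 min and 24 h. Without the 4 doubtful KO libraries the counts were 2 for KO against WT at 30 min, and 2 and 2 for the differences in response. For the 30 min difference, no filter gave 4 genes and DESeq2 gave 5, and for the 24 h difference the compared groups alone gave 0 (2 at an unadjusted p under 0.05). Libraries of 1 genotype whose descriptions share a code correlated best with each other in 48 of 48 cases. Over 24 pairs the correlation of deviations was 0.0464 to 0.462, and it was over 0.1 in 22 of them. The labels do not say what the code marks, so the pairing rests on the data and on the shared code. For KO culture 4 the sex transcripts did not match across the code. Ddx3y had 0.193 CPM in its control, 0.904 CPM at 30 min and 66.3 CPM at 24 h, and Xist 423, 426 and 145 CPM. The pairing is therefore doubtful for that 24 h library, and its effect on the block was not tested. The main fit did not use the code. With the code as a replicate block, the 30 min difference had 4 genes called, Fosb, Fos (adjusted p = 0.000711), Atf3 (0.00573) and Junb (0.0134), where 0.179% of all genes were called. In WT neurons the block gave 6 genes at 30 min, adding Jund (0.55, adjusted p = 0.0143), where 0.584% of all genes were called, and 4 at 24 h, adding Fos (0.76, adjusted p = 0.00477), where 31.6% were. DESeq2, no filter and the block were run on the counts as deposited, and why their calls differ was not tested. Fosl1 in all libraries, at 1.90 to 6.28 CPM, and Fosb and Atf3 in WT controls, at 2.54 to 5.12 and 2.40 to 5.98 CPM, rest on low levels.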
